A study of Mus musculus with 12 samples.

Results

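The genes examined were 6 through which the mouse oocyte signals to, or is in contact with, the granulosa cells of its follicle, namely *Gdf9*, *Bmp15*, *Bmp6*, *Fgf8*, *Kit* and *Gja4*. They were chosen by symbol from the 24255 genes of the expression table, and all 6 were among the 11233 genes that reached 1 FPKM in at least 1 library and were tested. RNA-Seq was done on 12 libraries of 20 germinal vesicle (GV) stage oocytes each, taken from females of the C57BL/6 strain at 3 weeks of age, 46 h after 5 IU of PMSG (also called eCG), a gonadotropin that stimulates follicle growth. There were 3 libraries in each of 4 groups. WT females carried no *Dpagt1* alteration, and MUT females were homozygous in the whole body for the ENU-induced D166G missense mutation of *Dpagt1*. GcKO females (Dpagt1F/F Gdf9CRE/+) lost *Dpagt1* in the oocyte through a Cre transgene under *Gdf9* sequences that acts from the primordial follicle on. AmcKO females (Dpagt1F/F Amhr2CRE/+) carried the same floxed alleles with a Cre at the *Amhr2* locus, which acts in granulosa cells, so that their oocytes were expected to keep the gene. *Dpagt1* encodes the enzyme of the first step of protein *N*-glycosylation. All groups had been primed alike, and neither floxed females without Cre nor Cre carriers without a floxed allele were in the series.

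The growing oocyte is not only fed by its granulosa cells but also instructs them. GDF9, BMP15 and BMP6 are secreted ligands of the TGF-beta superfamily that act on receptors of the surrounding granulosa cells, and FGF8 acts with BMP15 on cumulus cell glycolysis. In the other direction, granulosa cells make KIT ligand, whose receptor KIT sits on the oocyte, and GJA4 (connexin 37) forms the gap junctions through which small molecules pass between the oocyte and granulosa cells. The ligands and the receptor are made in the secretory pathway and are known glycoproteins, and the question put to the table was whether the transcripts of these genes differ when *Dpagt1* is mutated or deleted.

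In the GENCODE M21 annotation of GRCm38, the assembly called mm10, *Gdf9* (ENSMUSG00000018238) maps to chromosome 11, 53431023 to 53437904, forward strand. *Bmp15* (ENSMUSG00000023279) maps to chromosome X, 6314107 to 6320721, reverse strand. *Bmp6* (ENSMUSG00000039004) maps to chromosome 13, 38345107 to 38500302, forward strand, and *Fgf8* (ENSMUSG00000025219) to chromosome 19, 45736798 to 45742915, reverse strand. *Kit* (ENSMUSG00000005672) maps to chromosome 5, 75574916 to 75656722, forward strand, and *Gja4* (ENSMUSG00000050234) to chromosome 4, 127311421 to 127314039, reverse strand. The compact genes have 2 exons each in their longest coding transcript (*Gdf9*, *Bmp15* and *Gja4*), against 21 for *Kit*, 7 for *Bmp6* and 5 for *Fgf8*. Only *Bmp6* shared exon bases with another annotated gene, 224 of the 3593 nt of its longest coding transcript with *Txndc5* on the opposite strand, and the libraries were not described as stranded.

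RefSeq promoters in GRCm38.p6 were at hand for 4 of the 6 genes (*Bmp15*, *Bmp6*, *Kit* and *Gja4*). The 250 bases before the start are shown for *Gja4*, the member whose transcript was called different between groups, and for *Bmp15*, the secreted ligand whose FPKM differed least between MUT or GcKO and WT. Capitals mark matches on either strand to 4 motifs, namely TAATTG and its relative TAATTA, known cores of homeobox protein sites, CANNTG, that of basic helix-loop-helix proteins, and AGGTCA, that of nuclear receptors. The Bmp15 window is chrX:6320725-6320974 and the Gja4 window chr4:127314040-127314289, each given 5′ to 3′ on the reverse strand of the chromosome, which is the coding strand.
Bmp15: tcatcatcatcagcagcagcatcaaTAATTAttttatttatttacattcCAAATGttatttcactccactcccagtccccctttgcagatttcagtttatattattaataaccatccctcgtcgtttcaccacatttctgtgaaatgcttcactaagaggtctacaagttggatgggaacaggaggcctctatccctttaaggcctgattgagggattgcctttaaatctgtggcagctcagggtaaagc
Gja4: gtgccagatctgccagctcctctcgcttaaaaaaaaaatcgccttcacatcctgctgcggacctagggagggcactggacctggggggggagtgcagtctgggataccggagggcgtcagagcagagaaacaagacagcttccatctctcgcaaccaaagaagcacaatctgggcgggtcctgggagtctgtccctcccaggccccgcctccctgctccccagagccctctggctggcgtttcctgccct
The *Bmp15* window held 1 TAATTA, starting 225 bases before the start, and 1 CANNTG, in the form CAAATG, at 201 bases. Neither the *Gja4* nor the *Kit* window held any of the 4 motifs, and the *Bmp6* window held 2 CANNTG matches. Among the promoters of 27025 genes, 66.0% held CANNTG, 13.8% AGGTCA, 7.34% TAATTG and 4.9% TAATTA in the same 250 bases. The GC content was 40.4% for *Bmp15* and 61.2% for *Gja4*, against a median of 52.0% over all genes.

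The values are FPKM, fragments per kilobase of transcript and per unit of mapped fragments, so that levels can be set side by side between genes. Their sum differed between groups, with 1167362 to 1226005 for the WT, 883256 to 1107925 for the AmcKO, 589617 to 611597 for the MUT and 482314 to 684212 for the GcKO libraries. Read counts were not given, so the depth behind a value is not known; judged from the steps between low values, 1 fragment weighed 2.27 to 2.65 times as much in WT as in MUT replicate 2, and low transcripts were thus measured most coarsely in WT. *Dpagt1* was listed at 0 in the 3 WT libraries, at 0.88, 0.41 and 0.98 FPKM in MUT, at 0, 0.37 and 0 in GcKO and at 0 in the 3 AmcKO libraries, so that the table does not check the genotype labels. The 10 oocyte markers were above 0 in every library, with a summed level of 11990 to 13650 FPKM in WT, 7624 to 10380 in AmcKO, 5673 to 5996 in MUT and 5249 to 7139 in GcKO. Of the 10, 5 were called lower by limma in MUT and 4 in GcKO against WT with 0 higher, where 20.8% and 20.2% of all tested genes were called. With the same FPKM sum in each library 1 was lower in each, and 2 and 5 were higher, where 43.6% and 44.6% of all genes were called. Over all genes with a mean of at least 5 FPKM, the median log2 fold change was -0.118 in MUT and -0.163 in GcKO as deposited. The label numbers ran from 4 to 6 in WT and AmcKO and from 1 to 3 in MUT and GcKO, and whatever they stand for cannot be told apart from that division. The labels do not say whether the libraries of a group came from separate females, so the p-values measure the spread between libraries, which may be technical. Each library pooled 20 oocytes, so their number was the same by design. A change in all oocytes of a pool and a larger one in some of them cannot be told apart. For any other cells carried along, neither can fewer cells and less RNA per cell.

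The 6 transcripts covered 3 orders of magnitude. *Gdf9* was highest in every library, at a mean of 2547 FPKM over the 12, and *Bmp15* second at 1460 FPKM. *Gja4* (146 FPKM) and *Fgf8* (76.1 FPKM) formed a middle tier, *Kit* averaged 18.7 FPKM and *Bmp6* 2.70 FPKM. Within a library, *Gdf9* stood at percentile 99.2 to 99.7 of the tested genes and *Bmp15* at 98.6 to 99.5, so that both are among the most abundant messages of the GV oocyte in every genotype. *Fgf8* held percentile 88.4 to 92.4 in all 12 libraries. Relative to *Gdf9*, the mean level of *Gja4* was 33.9 times lower in WT, 21.5 times lower in AmcKO, 14.0 times lower in GcKO and 10.2 times lower in MUT. The highest library was 3.4 times the lowest for *Gja4*, 2.58 times for *Kit*, 2.43 times for *Fgf8*, 2.09 times for *Gdf9* and 1.6 times for *Bmp15*.

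**Figure D1:**
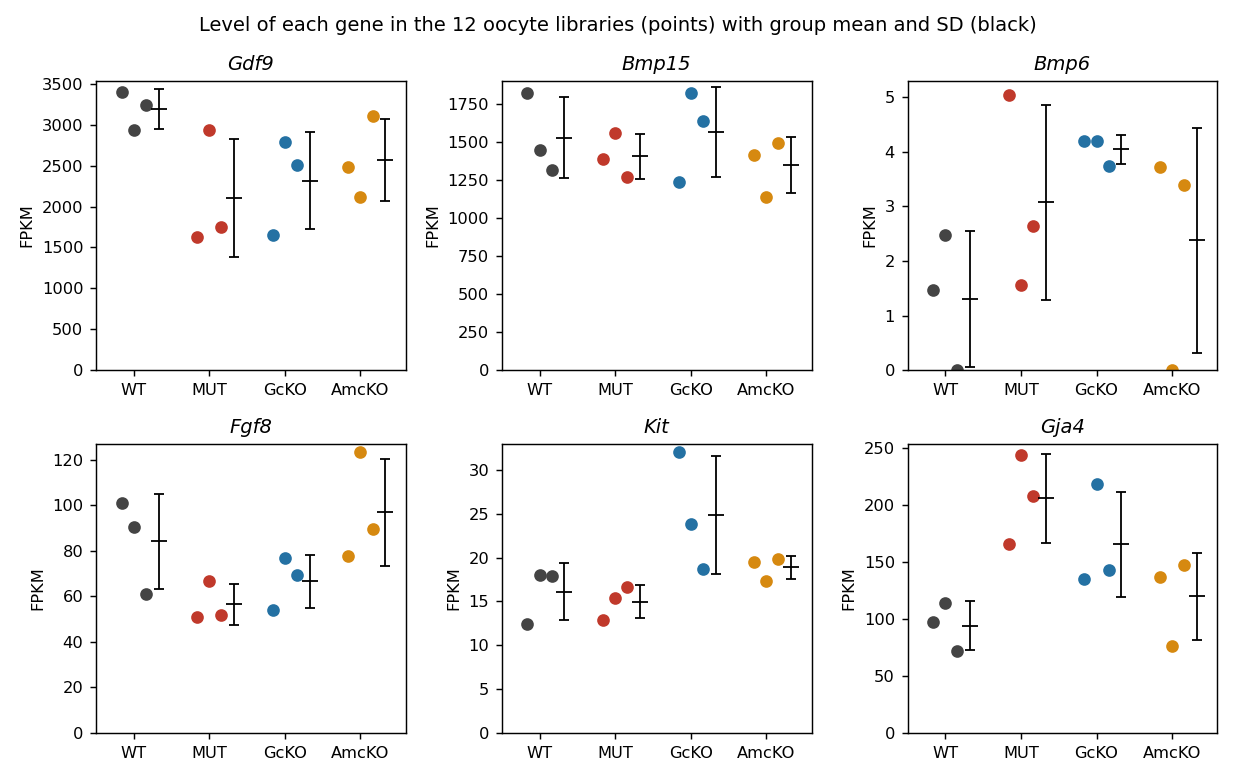
FPKM of the 6 genes in each library (points, in order of their label number) with the mean and SD of each group of 3 (black, right of the points); each panel has its own linear axis from 0. The 3 MUT values of Gja4 (166 to 244) lie above the 3 WT values (71.7 to 114), while the Bmp15 values of all groups share 1 range.

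*Gja4* was the only member with a called difference. A transcript was called where the limma adjusted p over all 11233 genes was under 0.05 on log2(FPKM + 1). Between MUT and WT, 1 of 6 members was called, where 20.8% of all tested genes were. In the moderated F test over the 4 groups, again *Gja4* alone was called (limma adjusted p = 0.030), where 18.2% of all genes were, and the other 5 had adjusted p from 0.0994 to 0.747. No member was called by limma in GcKO against WT (background 20.2%), AmcKO against WT (0.214%), GcKO against MUT (0.205%), GcKO against AmcKO (5.46%) or MUT against AmcKO (6.49%). At an unadjusted p under 0.05, limma gave 3 members each in MUT and in GcKO against WT (34.1% and 33.7% of all tested genes) and 0 in AmcKO against WT (15.6%). It gave 1 each in GcKO against MUT (6.6%) and against AmcKO (19.3%), and 2 in MUT against AmcKO (20.6%). The ranges of the 3 against 3 values did not overlap for 2 of 6 members in MUT against WT (37.1% of all tested genes), 4 in GcKO against WT (34.2%), 0 in AmcKO against WT (17.8%), 1 in GcKO against MUT (13.3%), 2 in GcKO against AmcKO (23.6%) and 3 in MUT against AmcKO (28.5%). The 3 comparisons with WT share its 3 libraries.

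**Figure D2:**
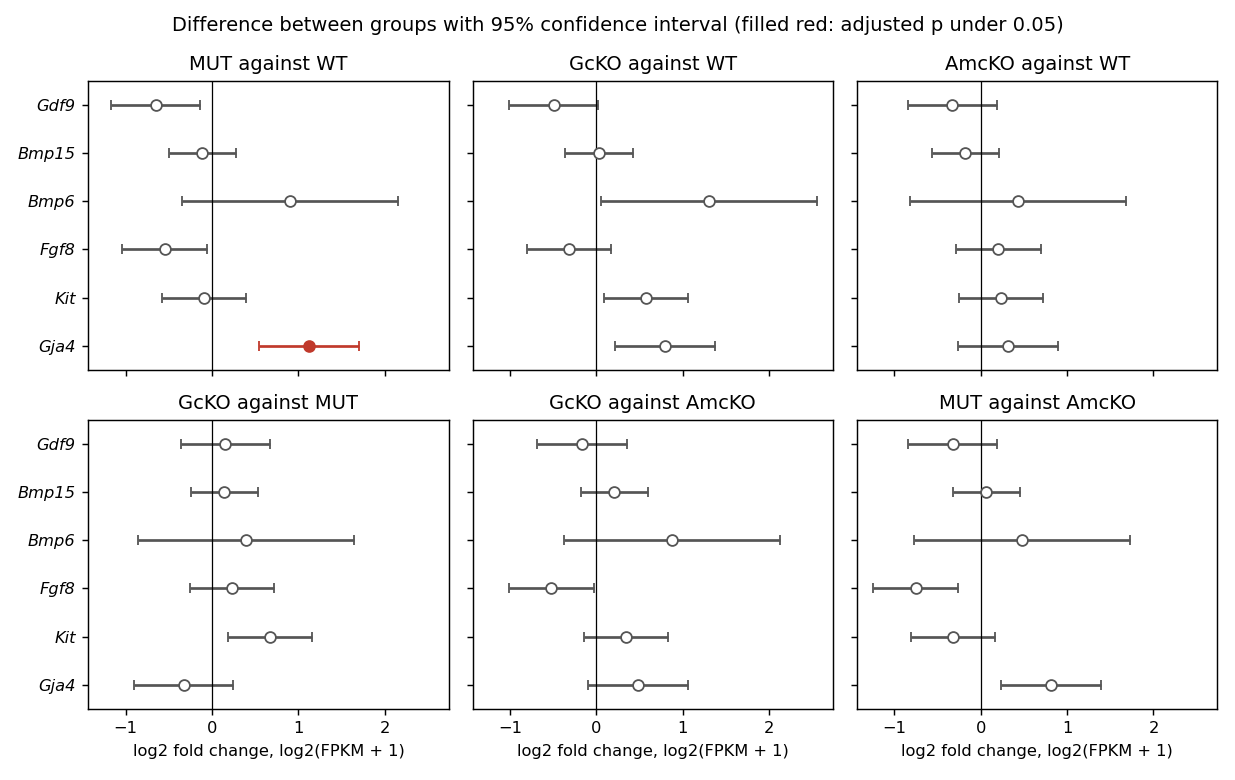
Log2 fold change of each gene (point, on log2(FPKM + 1)) with its 95% confidence interval in the 6 comparisons between groups, the first named group minus the second. The Gja4 point in MUT against WT, at 1.13 (0.55 to 1.70), is the filled one; the Bmp6 intervals are the widest in every panel.

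*Gdf9*, the growth factor without which follicles do not pass the primary stage, read 3404, 2934 and 3243 FPKM in WT and 1631, 2931 and 1746 FPKM in MUT oocytes. It read 1652, 2795 and 2502 FPKM in GcKO and 2487, 2121 and 3113 FPKM in AmcKO. The WT libraries were tight around 3193 ± 239 FPKM (SD, n = 3) and the MUT libraries were not (2103 ± 720, n = 3), since MUT replicate 2 came within 3 FPKM of the lowest WT library. The ranges of MUT and GcKO both lay below that of WT. The log2 fold change was -0.65 (95% CI -1.17 to -0.13, limma adjusted p = 0.0722) in MUT and -0.50 (-1.01 to 0.023, adjusted p = 0.167) in GcKO against WT. It passed the threshold in MUT when replicate 2 was left out, at -0.92 (limma adjusted p = 0.0197), and when only genes with a mean of at least 5 FPKM were tested (adjusted p = 0.0393). These negative values became positive when libraries were scaled to the same FPKM sum (0.35 in MUT and 0.54 in GcKO) or quantile normalized (0.59 and 0.78, the last with a limma adjusted p of 0.0197). In AmcKO against WT, the difference was -0.33 (-0.85 to 0.19).

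*Bmp15*, the X-linked partner of *Gdf9*, gave 1823, 1443 and 1316 FPKM in WT and 1387, 1560 and 1266 FPKM in MUT. It gave 1236, 1819 and 1637 FPKM in GcKO and 1410, 1138 and 1489 FPKM in AmcKO, and every pair of groups overlapped. Its log2 fold change from WT was -0.11 for MUT (95% CI -0.50 to 0.28), 0.029 for GcKO (-0.36 to 0.42) and -0.18 for AmcKO (-0.57 to 0.21). The intervals leave room for changes of up to about 0.5 on the log2 scale, so a like level in the 4 groups was not shown. Scaled to the same sum, *Bmp15* was instead called higher in MUT (0.88, limma adjusted p = 0.000887) and GcKO (1.07, adjusted p = 0.000325) than in WT, and quantile normalization gave 0.94 and 1.12 with adjusted p of 0.0047 and 0.00238.

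*Bmp6*, a ligand that granulosa cells also answer to, was barely detected. It was listed at 1.46, 2.48 and 0 FPKM in WT, at 5.04, 1.56 and 2.63 in MUT, at 4.19, 4.20 and 3.73 in GcKO and at 3.73, 0 and 3.40 in AmcKO. All 3 GcKO values lay above the WT range, but the limma adjusted p was 0.133 (log2 fold change 1.30, 95% CI 0.050 to 2.55). Divided by the weight of 1 fragment in its library, each value fell within 0.034 of a whole multiple of a common step. If that step is 1 fragment, the values stood for 2, 3 and 0 fragments in WT, 15, 5 and 7 in MUT, 14, 15 and 8 in GcKO and 8, 0 and 9 in AmcKO. A WT value of *Bmp6* would then rest on at most 3 fragments. No *Bmp6* difference between groups was called in the deposited scaling, and what this depth could detect was not tested. With the same FPKM sum in each library, *Bmp6* was called higher than WT in MUT (1.44, limma adjusted p = 0.044) and GcKO (1.91, adjusted p = 0.0114). *Txndc5*, which shares exon bases with it, was between 9.13 and 15.0 FPKM in WT, between 20.1 and 27.5 in MUT, between 23.2 and 35.6 in GcKO and between 16.6 and 23.6 in AmcKO, and its part in the *Bmp6* values was not tested.

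*Fgf8* was at 101, 90.6 and 61.0 FPKM in WT and at 50.8, 66.8 and 51.9 FPKM in MUT. The GcKO libraries gave 54.0, 76.8 and 69.2 FPKM and the AmcKO libraries 77.7, 123 and 89.6 FPKM. MUT and WT overlapped through WT replicate 6, the lowest of its group, and without that library the difference passed the threshold (-0.76, limma adjusted p = 0.0374, against -0.55 and 0.106 with it). The largest *Fgf8* difference was between MUT and AmcKO, whose ranges did not meet, at -0.75 (-1.24 to -0.26, limma adjusted p = 0.0683). MUT and GcKO differed by 0.23 (-0.26 to 0.72), the latter minus the former. Scaled to the same FPKM sum, the *Fgf8* difference from WT turned to 0.43 in MUT (limma adjusted p = 0.0991) and in GcKO to 0.71, then called higher (adjusted p = 0.0122); both lay below the median of all genes in the same fits (0.70 and 0.73).

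*Kit*, the receptor by which the oocyte receives KIT ligand, was at 12.4, 18.0 and 18.0 FPKM in WT, and at 12.9, 15.4 and 16.7 FPKM in MUT. GcKO oocytes gave 32.0, 23.8 and 18.7 FPKM and AmcKO oocytes 19.5, 17.4 and 19.8 FPKM. The lowest GcKO library was above the highest WT and the highest MUT library, by under 1 FPKM in the case of WT. The log2 fold change of GcKO was 0.58 (0.092 to 1.06, limma adjusted p = 0.0881) against WT and 0.67 (0.18 to 1.15, adjusted p = 0.466) against MUT. The difference from WT was 0.76 without GcKO replicate 3 (limma adjusted p = 0.0372), passed the threshold with a mean of at least 5 FPKM (adjusted p = 0.0468), and was 1.56 with the same FPKM sum (adjusted p = 0.000979). MUT and WT differed by -0.088 (-0.57 to 0.40), which scaling to the same FPKM sum turned to 0.84 (limma adjusted p = 0.0305) against a median of 0.70 over all genes. *Kitl*, which encodes the ligand on the granulosa side, reached at most 2.31 FPKM in any of these oocyte libraries.

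*Gja4* rose in MUT oocytes. It was at 97.2, 114 and 71.7 FPKM in WT and at 166, 244 and 208 FPKM in MUT, with the lowest MUT library well above the highest WT library. GcKO libraries read 135, 219 and 143 FPKM, again all above WT, and AmcKO libraries 137, 76.4 and 147 FPKM, which straddled the upper end of WT. In means, WT was at 94.2 ± 21.2 FPKM (SD, n = 3) and MUT at 206 ± 39.2 FPKM (SD, n = 3), a log2 fold change of 1.13 with a standard error of 0.27 (limma adjusted p = 0.00929) and a 2.18-fold difference on the log2(FPKM + 1) scale. The call held with each of the 6 libraries of both groups left out in turn (limma adjusted p from 0.0119 to 0.0463) and under every alternative of scaling, filter and model tried. GcKO was 1.74-fold above WT (0.80, 95% CI 0.22 to 1.38) with a limma adjusted p of 0.0504, which fell to 0.0444 without WT replicate 5, 0.0275 with a mean of at least 5 FPKM, 0.00771 after quantile normalization and 0.000438 with the same FPKM sum. MUT and GcKO overlapped and differed by -0.33 (-0.90 to 0.25), the latter minus the former. MUT was above AmcKO without overlap at 0.81 (0.23 to 1.39, limma adjusted p = 0.0937), and AmcKO differed from WT by 0.32 (-0.26 to 0.89). In the order MUT, GcKO, AmcKO and WT, no pair of neighbours differed past the threshold. By rank, *Gja4* held percentile 89.4 to 91.8 of the tested genes in WT, 95.0 to 96.4 in MUT and 94.2 to 96.2 in GcKO. AmcKO (90.0 to 93.9) overlapped WT and lay below GcKO and MUT.

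Some transcripts of granulosa cells were higher in the groups where *Gja4* was, and others were not. Over 15 granulosa and cumulus markers other than *Cyp19a1*, the summed level was 2.53 to 3.93 FPKM in WT, 2.02 to 3.45 in AmcKO, 7.64 to 9.17 in GcKO and 7.51 to 18.0 in MUT. With *Cyp19a1*, a steroid enzyme at 6.70 to 20.9 FPKM, the sums of 16 markers overlapped in all groups. Of the 16, 7 were tested, and 3 were called higher in MUT than in WT by limma under each scaling (background 20.8%), *Inha* (inhibin alpha), *Hsd17b1* and *Gja1* (connexin 43, the main connexin between granulosa cells). These 3 were listed at 0 in the WT libraries, where low transcripts were measured most coarsely. They reached at most 5.44, 3.09 and 4.26 FPKM in MUT. The other 4 were not called in MUT, with *Cyp19a1* at -0.68 (limma adjusted p = 0.185), *Fshr* at -0.042, *Kitl* at -0.024 and *Nr5a2* at 0.22 on the log2 scale. In GcKO against WT, 0 of the 7 were called as deposited (background 20.2%) and 4 were called higher with the same FPKM sum (background 44.6%). The defining markers *Amh*, *Amhr2* and *Foxl2*, together with *Ptx3* and *Tnfaip6*, were at 0 in all 12 libraries, and the part of granulosa RNA in the *Gja4* values was not tested.

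Ratios between members within a library do not depend on a scale factor per library. The log2 ratio of *Gja4* to *Gdf9* was -5.13, -4.69 and -5.50 in WT and -3.30, -3.59 and -3.07 in MUT, a difference of means of 1.79. GcKO libraries (-3.61, -3.68 and -4.13) also lay clear of WT, and AmcKO libraries (-4.19, -4.80 and -4.40) did not. Against *Bmp15*, *Gja4* was higher by 1.25 in MUT and 0.78 in GcKO relative to WT, and against *Fgf8* by 1.69 and 1.13, in each case without overlap. The ratio of *Gja4* to *Kit* was apart from WT in MUT (1.23) but not in GcKO (0.20), where *Kit* itself was at its highest. *Bmp15* over *Gdf9* rose from a mean of -1.08 in WT to -0.54 in MUT and -0.55 in GcKO; MUT replicate 2 (-0.91) met the WT range, and no GcKO library did. *Fgf8* over *Bmp15* was lower than WT without overlap in MUT (-0.45) and in GcKO (-0.35), and the 3 GcKO values were within 0.05 of each other. *Kit* over *Gdf9* was 1.10 higher in GcKO than in WT and 0.57 higher in AmcKO, without overlap in either. The ratios of *Fgf8* to *Gdf9*, *Kit* to *Bmp15* and *Kit* to *Fgf8* overlapped WT in MUT, GcKO and AmcKO alike. How many ratios between other genes do not overlap was not computed. For single genes the share without overlap with WT was 37.1% in MUT, 34.2% in GcKO and 17.8% in AmcKO. All these ratios are descriptions and were not tested.

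**Figure D3:**
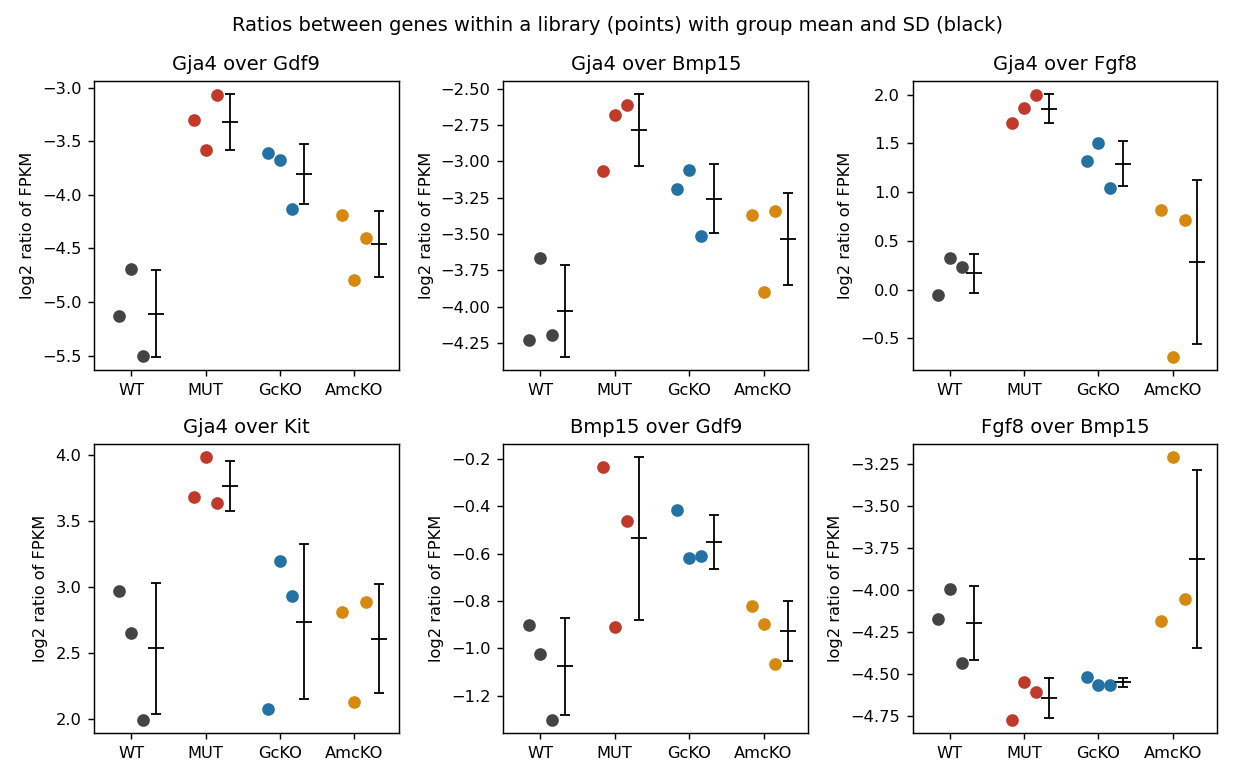
Log2 ratio of the FPKM of 2 genes within each library (points) with the mean and SD of each group of 3 (black); the axes differ between panels and do not start at 0. Gja4 over Gdf9 runs from -5.50 to -4.69 in WT and from -3.59 to -3.07 in MUT, and Gja4 over Fgf8 separates MUT and GcKO from WT in the same way.

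How libraries were scaled decided the direction for the abundant ligands but not for *Gja4*. Scaling to the same FPKM sum moved the median log2 fold change of all genes from 0.12 to 0.70 in MUT and from 0.12 to 0.73 in GcKO against WT. Relative to that median, *Gja4* was at 1.00 as deposited and 1.41 with the same sum in MUT, and at 0.68 and 1.10 in GcKO. *Gdf9* stayed below the median in both settings, at -0.77 and -0.36 in MUT and at -0.62 and -0.19 in GcKO, and *Bmp15* crossed it, from -0.23 to 0.18 in MUT and from -0.091 to 0.34 in GcKO. After quantile normalization, where the medians were 0.029 and 0.026, *Gdf9* was above it by 0.56 in MUT and 0.75 in GcKO. Median-of-ratios scaling left every member within 0.02 of its deposited value in these 2 comparisons.

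**Figure D4:**
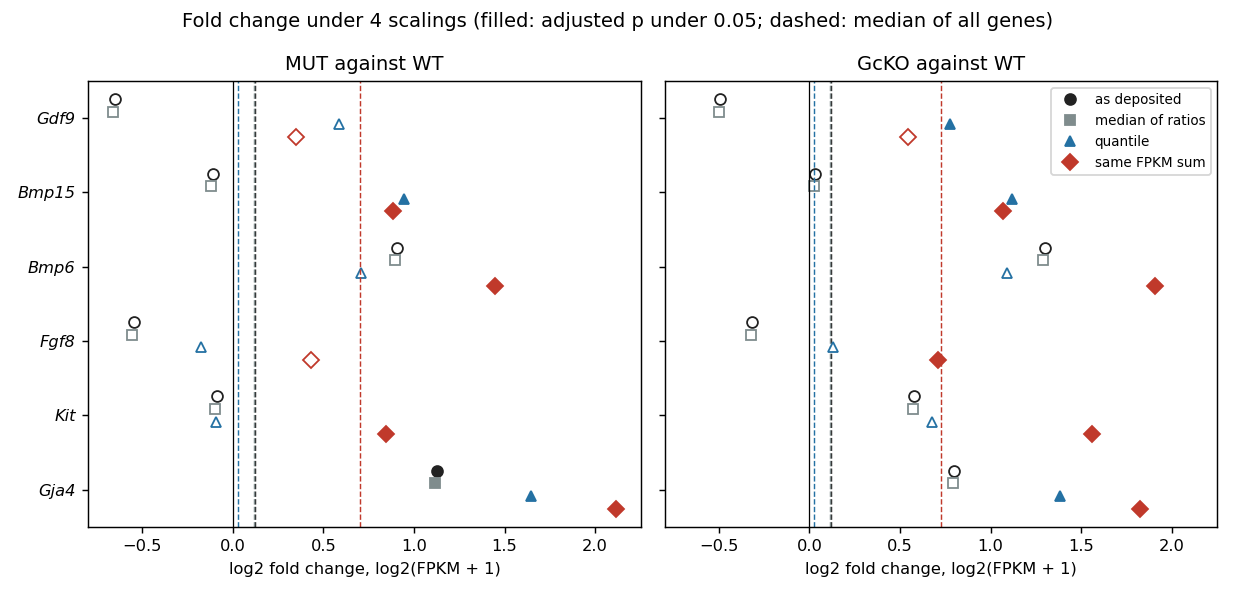
Log2 fold change of the 6 genes in MUT and GcKO against WT as deposited and under 3 other scalings (symbols; filled where the limma adjusted p is under 0.05), with the median of all tested genes in each scaling as a dashed line. Gja4 in MUT is filled in all 4, from 1.12 to 2.11, whereas Gdf9 and Bmp15 lie on both sides of 0.

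The genes whose profile over the 12 libraries was most like that of each member were sought among the 5545 genes with at least 1 FPKM in every library, which leaves out *Bmp6*. For *Gja4* they were *Tpra1* (Pearson r = 0.951), *Rbm38* (0.945) and *Pttg1ip* (0.936), whose means were 17.3, 33.6 and 11.6 FPKM in WT and 42.6, 86.1 and 22.2 FPKM in MUT. For *Gdf9* they were *Oas1d* (r = 0.904), *Tmem199* (0.889) and *Tacc3* (0.870), and for *Bmp15* *Zfp438* (0.894), *A430033K04Rik* (0.874) and *Tuba4a* (0.850). *Fgf8* was nearest to *Sh3bgrl* (0.898), *Cd9* (0.895) and *Cklf* (0.894). *Kit* was nearest to *Cd2ap* (0.930), *Lhx8* (0.852) and *Bnc1* (0.824), and these 3 were the nearest again when libraries were scaled to the same sum, against 2 of 3 for *Gdf9*, 1 each for *Bmp15* and *Gja4* and 0 for *Fgf8*. *Lhx8*, which encodes a homeobox factor of the oocyte, averaged 34.8 FPKM in WT, 38.0 in MUT, 58.8 in GcKO and 37.7 in AmcKO. Among the members themselves, the highest correlation was 0.686 (*Bmp6* and *Gja4*) and that of *Gdf9* with *Bmp15* was 0.603. All these values describe 12 libraries that share group means and scaling.

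Genes around the members were counted in 7 lists of 144 genes, of which 87 were tested. In MUT against WT, 22 of the 87 (25.3%) were called by limma, 15 higher and 7 lower, and in GcKO against WT 26 (29.9%), 17 higher and 9 lower, beside 20.8% and 20.2% of all genes. In AmcKO against WT, 1 was called, where 0.214% of all genes were, and 23 had an unadjusted p under 0.05, where 15.6% of all genes did. The median log2 fold change of the 87 was 0.35 in MUT and 0.49 in GcKO, beside 0.12 over all genes in both. In AmcKO it was 0.185, beside 0.027 over all genes. With the same FPKM sum the balance of directions was another one, with 51 of the 87 called higher and 3 lower in MUT and 49 and 4 in GcKO. Beside this, 43.6% and 44.6% of all genes were called, most of them higher too (4641 of 4894 in MUT and 4769 of 5010 in GcKO). Quantile normalization gave 10 and 4 in MUT and 9 and 3 in GcKO, beside 13.1% and 12.1% of all genes called. When only the 2 groups compared were fitted, 10 of 16 calls of named genes in GcKO against WT were lost, with limma adjusted p from 0.05 (*Smad3*) to 0.155 (*Ctnnb1*). All directions in the next paragraphs are for the deposited scaling, and the called genes that another scaling turned are named. Counts of single lists stand beside the same shares of all genes called, 20.8% in MUT and 20.2% in GcKO against WT as deposited.

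Among 22 other TGF-beta superfamily ligands, 4 were tested. *Tgfb2* fell from 163, 151 and 154 FPKM in WT to 104, 104 and 94.7 in MUT and 89.9, 108 and 106 in GcKO (log2 fold change -0.62, limma adjusted p = 0.00546, and -0.62, 0.00568), but was called higher in both with the same FPKM sum (0.37 and 0.41). *Inha* was the only ligand called higher, in MUT. Of 26 receptors and Smads, through which these ligands are read, 17 were tested, and 2 rose in MUT and 5 in GcKO with 0 falling. *Smad4*, the shared partner of the receptor-regulated Smads, averaged 2.25 ± 1.14 FPKM (SD, n = 3) in WT, 9.33 ± 2.31 in MUT and 10.4 ± 3.32 in GcKO (1.70 and 1.82, limma adjusted p = 0.00205 and 0.00129). AmcKO averaged 6.11 ± 1.06 FPKM and lay above the WT range as well, without a call (1.17, limma adjusted p = 0.134). *Smad3* rose by 1.48 in MUT and 1.33 in GcKO (limma adjusted p = 0.00161 and 0.00326). Its difference in AmcKO was 0.595, not called (limma adjusted p = 0.306). *Smad4* (3.56, 1.72 and 1.48 FPKM) and *Smad3* (2.60, 1.83 and 4.41 FPKM) were low in WT, where low transcripts were measured coarsely. *Id3*, a target of BMP signals, was called in GcKO (1.32, limma adjusted p = 0.0183) but not without GcKO replicate 1 (0.0737) or replicate 3 (0.0675), nor after quantile normalization. Of 13 convertases and antagonists, 4 were tested, and *Furin*, the protease that cleaves precursors of this family, was called higher in MUT (1.24, limma adjusted p = 0.026), not without WT replicate 4 or 6 or MUT replicate 2 or 3 (adjusted p from 0.0555 to 0.105) and not after quantile normalization. *Furin* read only 0.80, 1.81 and 0.39 FPKM in WT, where low transcripts were measured coarsely. It was at 1.00 in GcKO and 0.92 in AmcKO, neither called (limma adjusted p = 0.0637 and 0.245).

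The list downstream of *Kit*, from the ligand through PI3K to Foxo3, had 22 of 28 genes tested, with 7 called higher and 1 lower in each of MUT and GcKO, and a median of 0.71 and 0.66. In AmcKO against WT, 0 were called, and the median was 0.399, beside 0.027 over all genes. *Foxo1*, a transcription factor that AKT keeps out of the nucleus, read 8.30, 9.05 and 11.5 FPKM in WT, 29.0, 22.7 and 26.8 in MUT and 33.4, 18.6 and 17.6 in GcKO (1.36 and 1.14, limma adjusted p = 0.00285 and 0.0082). *Pik3cd* and *Pik3ca*, catalytic subunits of PI3K, rose by 1.38 and 1.22 in MUT (limma adjusted p = 0.00198 and 0.00546) and by 1.13 and 1.09 in GcKO (0.00687 and 0.0109). The GcKO calls of *Foxo1* and *Pik3cd* were among those lost with only the 2 groups fitted (limma adjusted p = 0.0653 and 0.0595). In WT, *Pik3ca* averaged 1.25 FPKM and *Akt1* read 0.66, 1.49 and 0.64 FPKM, levels at which WT was measured coarsely. *Akt1* rose by 1.25 in GcKO (limma adjusted p = 0.0181), with adjusted p from 0.0508 to 0.0758 without WT replicate 4 or 6 or GcKO replicate 1 or 2. It was also called in MUT (1.06, limma adjusted p = 0.04), and neither call held after quantile normalization. In AmcKO, *Akt1* was at 1.05, not called (limma adjusted p = 0.178). With quantile normalization, 4 of the 7 higher genes were still called in MUT and 3 of the 7 in GcKO. The lower gene in both was *Rheb* (-0.82 and -0.84), whose sign turned with the same FPKM sum. *Foxo3* itself was not called in any comparison with WT.

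In the FGF list, 13 of 20 genes were tested. *Spry1*, a feedback inhibitor of FGF receptor signalling, was called lower, from 36.4, 29.9 and 26.4 FPKM in WT to 9.14, 18.4 and 12.8 in MUT (-1.18, limma adjusted p = 0.00538) and 21.0, 14.3 and 17.5 in GcKO (-0.78, adjusted p = 0.0452). With the same FPKM sum, *Spry1* was at -0.24 in MUT (limma adjusted p = 0.526). The GcKO call was lost on leaving out any 1 of the 6 libraries (limma adjusted p from 0.0519 to 0.149), and with the same FPKM sum it turned to 0.21. That call was also lost with no filter, quantile normalization, no variance trend, only the 2 groups fitted or the replicate block (limma adjusted p from 0.0609 to 0.123). In GcKO, *Fgf7* was called lower (-0.91, limma adjusted p = 0.0293) and *Spred1*, another inhibitor of the cascade, higher (0.97, adjusted p = 0.0322). *Fgf7* lost its call without WT replicate 4 or 6 or GcKO replicate 1 or 2 (limma adjusted p from 0.0624 to 0.126), and *Spred1* without WT replicate 5 or 6 or GcKO replicate 1 or 2 (0.0556 to 0.119). With only the 2 groups fitted, neither was called (limma adjusted p = 0.14 for *Fgf7* and 0.0635 for *Spred1*). *Spred1* was also not called after quantile normalization (limma adjusted p = 0.13) or with the replicate block (0.0574). The difference of *Fgf7* was 0.0006 with the same FPKM sum.

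Of 21 gap junction and contact genes, 14 were tested, 4 of them called higher in MUT and 2 higher and 1 lower in GcKO. *Gja1*, described above, stood apart in MUT, where the 3 libraries gave 3.30, 2.35 and 4.26 FPKM. *Ctnnb1* (beta-catenin) was called higher in MUT (0.74, limma adjusted p = 0.0231) and in GcKO (0.63, adjusted p = 0.0491). The MUT call was lost without WT replicate 4 or 5 or any MUT replicate (limma adjusted p from 0.0509 to 0.0863). The GcKO call was lost without any WT replicate or GcKO replicate 1 (limma adjusted p from 0.0711 to 0.198). It was also lost with no filter, median-of-ratios scaling, no variance trend or the replicate block (limma adjusted p from 0.0521 to 0.0836). *Myo10*, a motor protein of filopodia and of the projections that link granulosa cells with the oocyte, followed another division of the groups. It was at 9.16, 14.6 and 8.32 FPKM in WT and 10.5, 10.9 and 9.60 in MUT, but at 0.98, 0.53 and 0.89 in GcKO and 0.25, 1.55 and 1.63 in AmcKO. It was called lower in GcKO (-2.67, limma adjusted p = 0.000166) and AmcKO (-2.49, adjusted p = 0.0050) against WT, with every library left out in turn and under each scaling, though not in AmcKO when only the 2 groups compared were fitted (limma adjusted p = 0.139). The groups that were low are those with floxed *Dpagt1* alleles and a Cre.

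Transcription factors known to act on oocyte genes were tested for 13 of 14 genes, with 0 called higher and 4 lower in MUT, and 2 higher and 4 lower in GcKO. With the same FPKM sum these counts were 8 higher and 3 lower in MUT and 4 higher and 3 lower in GcKO. Beside this, 43.6% and 44.6% of all genes were called, most of them higher. After quantile normalization the counts were 0 and 3 in MUT and 2 and 1 in GcKO, beside 13.1% and 12.1% of all genes. The homeobox genes *Obox1*, *Obox2* and *Obox5* had the largest falls, by 1.64, 1.64 and 1.72 on the log2 scale in MUT and 1.82, 1.89 and 1.74 in GcKO (limma adjusted p from 6.7e-05 to 0.000162). They are near copies of each other whose fragments may be split between them. In FPKM their means went from 34520, 52690 and 23250 in WT to 11090, 16910 and 7079 in MUT. Their direction was the same under all scalings, whereas *Tbp*, called lower in GcKO, turned with the same FPKM sum; after quantile normalization *Obox1* was not called in MUT, nor *Obox1* and *Obox5* in GcKO. *Nobox*, *Figla* and *Lhx8* are known regulators of *Gdf9* and *Bmp15* or of the genes around them. As deposited, none of them was called in any comparison with WT (limma adjusted p of at least 0.0522, that of *Lhx8* in GcKO). *Figla*, at -0.38 in MUT against WT as deposited, turned with the same FPKM sum and was then called higher. *Sohlh1*, another such factor, was listed at 0 in all 12 libraries and could not be tested.

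**Figure D5:**
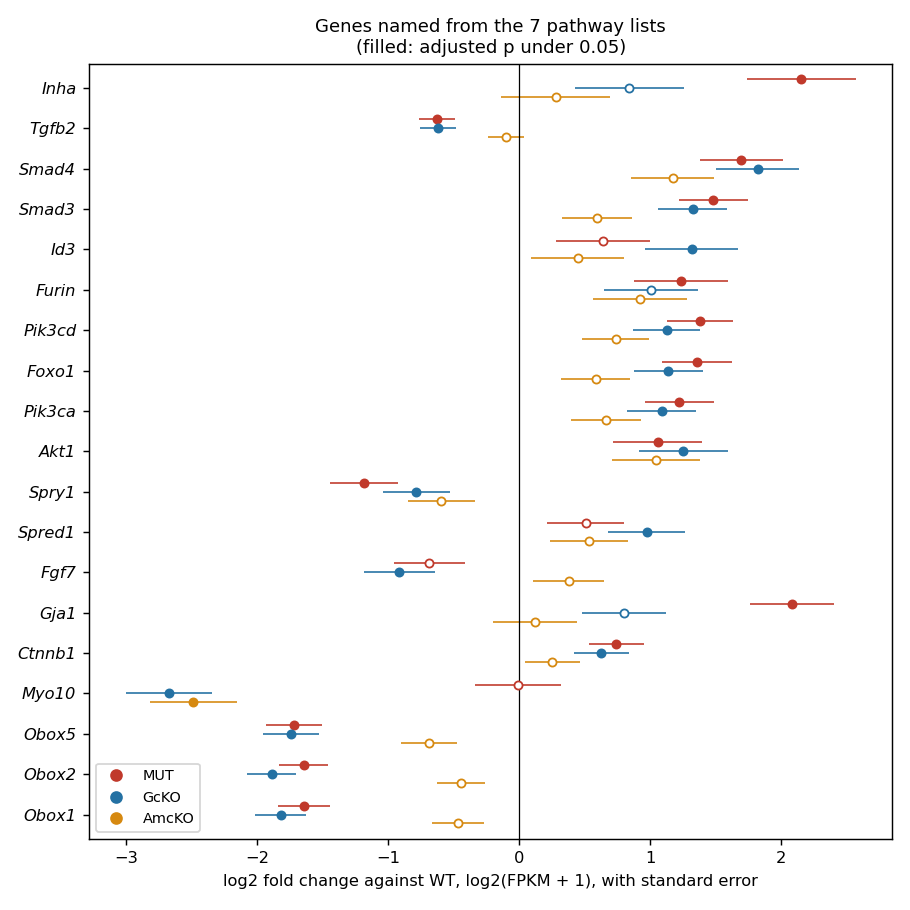
Log2 fold change against WT (point, with its standard error) of genes named from the 7 lists, in MUT, GcKO and AmcKO; filled points have a limma adjusted p under 0.05. Smad3, Smad4, Foxo1 and Pik3cd are filled on the right for MUT and GcKO, Obox1, Obox2 and Obox5 on the left, and Myo10 is filled on the left for GcKO and AmcKO while MUT lies at -0.007.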

How the data were processed

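RNA-Seq data of 12 libraries of 20 GV oocytes (WT, MUT, GcKO and AmcKO, 3 each) were analysed. The authors prepared cDNA by Smart-seq2, aligned paired reads of 150 nt to mm10 with tophat2 2.0.13 and deposited 1 FPKM column per library from cufflinks 2.2.1 for 24255 genes; the gene annotation is not given in the sources used here. The deposited table also holds p-values, q-values and log2 fold changes for the authors' own comparisons, which were not used. The processing notes name Cuffnorm as well. FPKM values carry no depth, so no counting intervals were computed.

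Values were tested as log2(FPKM + 1) with limma 3.58.1 (R 4.3.3) with an abundance trend, in 1 fit of all 12 libraries with 8 residual degrees of freedom, for the 11233 genes with at least 1 FPKM in at least 1 library. Tests were two-sided, adjusted by Benjamini-Hochberg over all genes tested and called under 0.05 with no fold minimum. A fold change on this scale understates that of low genes. The code was checked on simulated data. The 6 members, the 7 pathway lists, the markers and the promoter motifs were chosen with earlier results of these data known. Named genes were the members, *Dpagt1*, up to 3 called genes of each list with the largest change in each comparison with WT, and the 3 genes most correlated with each member; *Kitl*, *Foxo3*, *Nobox*, *Figla*, *Sohlh1*, *Txndc5*, *Rheb*, *Tbp* and marker genes were named besides where a result touched them. A gene that this rule names is not reported here. Promoters were taken from RefSeq (GRCm38.p6) and coordinates from GENCODE M21. The protein sequences of the members were not analysed here. The fragment estimate for *Bmp6* was chosen after its values were seen. Tables were made with Python 3.11.15, numpy 2.4.6, pandas 2.3.3 and scipy 1.17.1. Alternatives were a pseudocount of 0.1, no filter, a mean of at least 5 FPKM, 3 other scalings, no variance trend, a fit of only the compared groups, a block for the label number, stricter calls (a fold change over 2 or an adjusted p under 0.01), and fits without 1 library each.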

Additional observations from a re-analysis of the deposited data

How the results depend on the processing

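Of 534 values of members under alternatives, 477 kept their direction and their side of the threshold, 25 passed it newly in the same direction and 32 turned in sign, 5 of them to a call in the other direction; the call of *Gja4* in MUT against WT held in all of them. The number of members called in MUT against WT (1, where 20.8% of all tested genes were) became 4 with the same FPKM sum (43.6% of all tested genes). It became 2 with quantile normalization (13.1%), with a mean of at least 5 FPKM (44.6%), or with a replicate block (16.9%). For GcKO against WT (0, 20.2%) it became 5 with the same FPKM sum (44.6%), 3 with quantile normalization (12.1%) and 2 with a mean of at least 5 FPKM (44.2%). For GcKO against AmcKO (0, 5.46%) it was 3 with the same FPKM sum (23.2%) and 1 with quantile normalization (2.23%). For MUT against AmcKO (0, 6.49%) it was 2 with the same FPKM sum (22.8%), with quantile normalization (4.68%) and with a mean of at least 5 FPKM (20.4%). That filter takes *Bmp6* out and tests fewer genes. Leaving out each library gave 1 to 2 members in MUT (13.4% to 18% of all tested genes) and 0 to 1 in GcKO against WT (12.2% to 20.7%), and 0 in the other 4 comparisons. The cause of these shifts was not tested.

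With the same FPKM sum, the values that turned were 0.35 (*Gdf9*), 0.88 (*Bmp15*), 0.43 (*Fgf8*) and 0.84 (*Kit*) in MUT against WT, 0.54 (*Gdf9*) and 0.71 (*Fgf8*) in GcKO against WT, 0.12 (*Bmp15*) in AmcKO against WT, 0.57 (*Gdf9*) and 0.21 (*Fgf8*) in GcKO against AmcKO, and 0.38 (*Gdf9*) and 0.34 (*Kit*) in MUT against AmcKO. With quantile normalization they were 0.59 (*Gdf9*) and 0.94 (*Bmp15*) in MUT against WT, 0.78 (*Gdf9*) and 0.13 (*Fgf8*) in GcKO against WT, 0.076 (*Gdf9*) and 0.15 (*Bmp15*) in AmcKO against WT, 0.70 (*Gdf9*) in GcKO against AmcKO and 0.51 (*Gdf9*) in MUT against AmcKO. On leaving out a library, these uncalled values turned. *Bmp15* ranged from -0.089 to 0.19 in GcKO against WT, from -0.21 to 0.022 in MUT against WT and from -0.050 to 0.14 in MUT against AmcKO. *Kit* ranged from -0.26 to 0.0095 in MUT against WT, and *Gdf9* from -0.0012 to 0.42 in GcKO against MUT and from -0.32 to 0.057 in GcKO against AmcKO. *Fgf8* ranged from -0.011 to 0.35 and *Bmp6* from -0.089 to 1.16 in AmcKO against WT, and *Bmp6* from -0.25 to 0.87 in MUT against AmcKO. Of 32 results of named list genes, *Tgfb2* turned with the same FPKM sum to 0.37 in MUT and 0.41 in GcKO against WT, and *Fgf7* to 0.0006 and *Spry1* to 0.21 in GcKO against WT. Of their 471 values under alternatives, 74 kept the direction and lost the call, 39 of them on leaving out a library, 12 with only the 2 groups compared and 12 with quantile normalization.

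Libraries of the same label number did not deviate together (correlations of -0.041 to 0.041), so the numbers were not taken as pairs. With the replicate block, *Gdf9* passed the threshold in MUT against WT (limma adjusted p = 0.0379, 2 members called in place of 1), and no other member changed its call. Scaling to the same FPKM sum raised the share of all genes called in MUT against WT from 20.8% to 43.6%. Protein features of the members were planned and not run. With 3 libraries a group and no counts, the confidence intervals given are the limit of what could be seen.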
